A study of Mus musculus with 6 samples.

Results

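The Notch receptors Notch1, Notch2 and Notch3, the ligands Jag1, Dll1 and Dll4, the Notch target Hes1 and the secretory fate regulators Atoh1, Spdef and Gfi1 were read in bladders of mouse embryos lacking Get1. They are 10 of the 18193 genes measured, and were chosen by name from the platform annotation. A gene with several probe sets was represented by the one with the highest mean over all 6 arrays. RNA of whole bladders at embryonic day 18.5 had been hybridised to 3 arrays of Get1 -/- animals (null, replicates 1 to 3) and 3 arrays of Get1 +/- animals (heterozygous, replicates 4 to 6). The heterozygous controls also carry 1 disrupted allele, and no wild-type bladder was analysed here. Get1 is now called Grhl3 and encodes a grainyhead-like factor that acts in surface epithelia. The labels name no Cre, transgene or strain, and do not say whether an array held 1 bladder or a pool.

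Notch is a receptor that is cut after it binds a ligand of the Delta or Jagged family on a neighbouring cell, and its intracellular part then joins the DNA-binding protein Rbpj to switch on repressors such as Hes1. In intestinal epithelium, Hes1 holds down Atoh1, the factor that commits a progenitor to the secretory lineage. Downstream of Atoh1, Gfi1 keeps goblet and Paneth cells apart from endocrine cells, and Spdef promotes the maturation of goblet and Paneth cells. Notch3 is also known from vascular mural cells, Dll4 from endothelium, and Gfi1 from blood cells.

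The upstream sequences of Spdef, Gfi1 and Dll1 are shown because these are the 3 members whose signal was higher on every null than on every heterozygous array. Each is the stretch of 250 bases before the annotated start (RefSeq, build GRCm38.p6, minus strand for all 3, written 5′ to 3′ along the gene). Capitals mark matches, on either strand, to TGGGAA, a core bound by Rbpj, to CAGNTG, an E-box form bound by Atoh1-like factors, or to AACCGGTT, the grainyhead-like consensus.
Spdef, chr17:27728952-27729201: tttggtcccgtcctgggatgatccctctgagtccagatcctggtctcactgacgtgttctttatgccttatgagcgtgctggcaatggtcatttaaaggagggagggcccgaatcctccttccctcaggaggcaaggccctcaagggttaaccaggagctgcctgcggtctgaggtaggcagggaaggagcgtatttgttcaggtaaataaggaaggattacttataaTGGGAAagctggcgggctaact
Gfi1, chr5:107725806-107726055: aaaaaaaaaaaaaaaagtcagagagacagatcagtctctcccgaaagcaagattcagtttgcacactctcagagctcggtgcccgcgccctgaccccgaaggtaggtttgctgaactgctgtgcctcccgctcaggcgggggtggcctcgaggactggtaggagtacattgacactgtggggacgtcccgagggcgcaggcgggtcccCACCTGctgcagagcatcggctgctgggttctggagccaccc
Dll1, chr17:15376933-15377182: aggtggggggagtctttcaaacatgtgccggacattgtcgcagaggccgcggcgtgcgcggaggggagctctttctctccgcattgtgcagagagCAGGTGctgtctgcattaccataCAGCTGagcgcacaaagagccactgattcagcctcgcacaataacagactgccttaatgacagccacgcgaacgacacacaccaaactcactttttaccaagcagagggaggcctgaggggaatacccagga
The Spdef stretch held 1 TGGGAA, 22 bases before the start, a motif that 21.6% of the 32851 upstream stretches of the table hold. The Gfi1 stretch held 1 CAGNTG match and that of Dll1 held 2, and 44.8% of all stretches hold at least 1. The second annotated starts of Gfi1 and of Dll1 had 0 matches to any of these motifs. AACCGGTT was found upstream of 0 of the 9 members in the table and in 0.116% of all stretches. A match is a run of letters and no measured binding site, and Hes1 was not matched in this table.

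Values are linear probe set intensities, and levels and differences are given on the scale log2(signal + 16), where the lowest possible level is 4. Differences are null minus heterozygous. Median signals of the arrays were 58.2 to 70.4 in null and 64.1 to 72.4 in heterozygous bladders. The dimmest 30% of genes by mean level (under 5.80) were left out, and limma was fitted to the other 12735, whose median difference was -0.03. The Grhl3 probe set, read as a check of the labels, had signals of 76.6, 21.5 and 119.7 in null and 143.3, 132.9 and 125.6 in heterozygous bladders. Whether this probe set lies within the deletion is not stated in the labels, so it may check nothing. All 17 urothelial markers had a probe set that passed the filter, and 0 of them were listed at 0.

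None of the Notch receptors, ligands or targets among the members passed the test between genotypes. Of the 10 members 6 passed the filter (Notch1, Notch2, Notch3, Jag1, Dll1 and Hes1), and 0 of these 6 were called in limma at an adjusted p under 0.05, against 0.51% of all tested genes (0.448% higher and 0.0628% lower in null). Dll1 passed the filter through its null arrays, with a mean level of 5.84 over all 6 arrays, so its being among the tested genes depends on the group in which it is high. At an unadjusted p under 0.05 there were 2, Dll1 in the higher direction (3.63% of tested genes) and Notch3 in the lower (4.3%). Dll4, Atoh1, Spdef and Gfi1 lay below the filter, and were read in a second limma fit without it, over all 18193 genes. There 1 of the 4 was called, Spdef, which was higher in null bladders, against 0.297% of genes called higher and 0.0495% called lower. Groups were separate, with every null array above every heterozygous array, for Dll1, Spdef and Gfi1, 3 of 10 members against 5.71% of all genes. They were separate in the lower direction for Notch3, 1 of 10 members against 6.92% of all genes. With 3 arrays a group the smallest two-sided p of an exact permutation test is 0.1, which is the value for each of these 4 members.

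**Figure D1:**
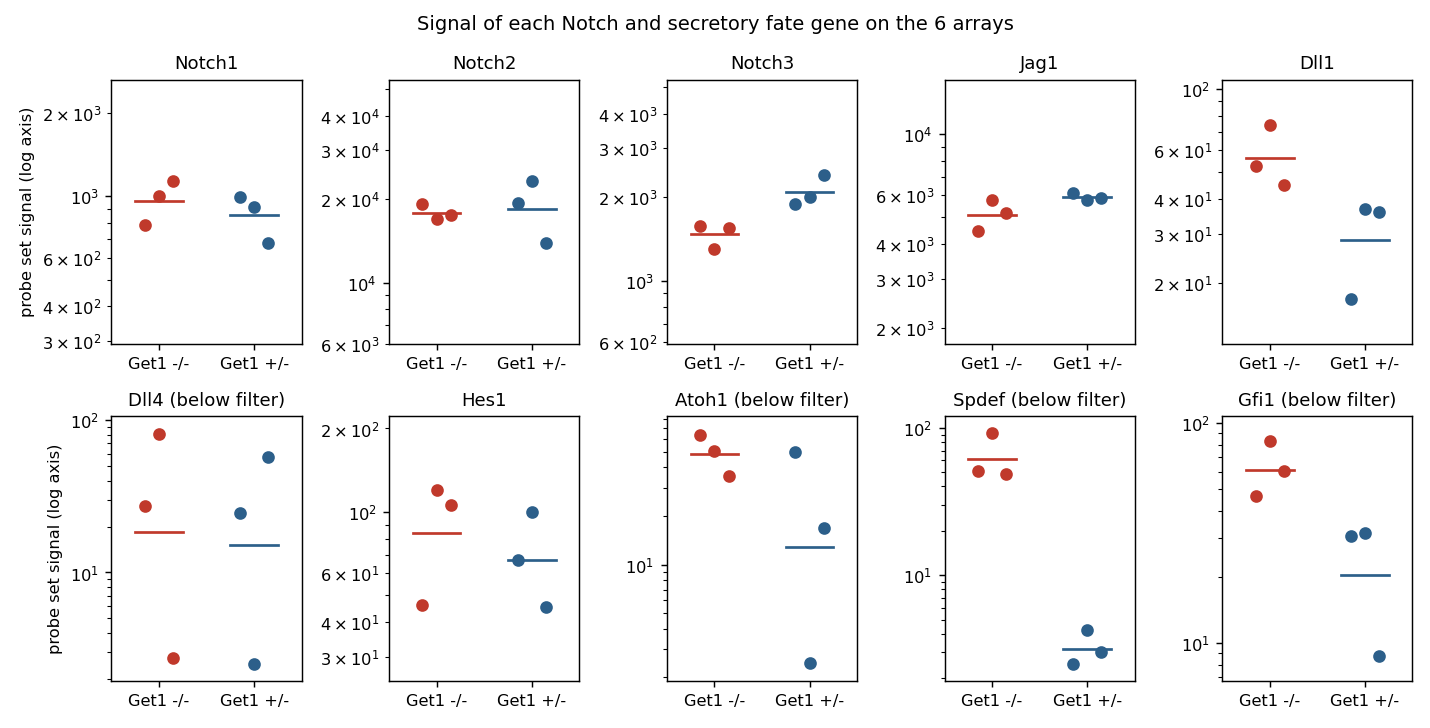
Probe set signal (log axis, own range per gene) of the 10 members on the 3 Get1 -/- arrays (red) and the 3 Get1 +/- arrays (blue). Lines are geometric means. Spdef has signals of 48.4 to 91.8 on null arrays and of 2.49 to 4.24 on heterozygous arrays, while the groups of Notch1, Notch2, Jag1, Dll4, Hes1 and Atoh1 overlap.

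Among the receptors, Notch1 and Notch2 had overlapping groups. Notch1, a receptor of many epithelia and of endothelium, had signals of 785.8, 1004 and 1133 in null and 996.7, 916.1 and 678.4 in heterozygous bladders. Null 2 and null 3 lay above all heterozygous arrays and null 1 within their range, and the difference was 0.17 (SE 0.25, 95% interval -0.40 to 0.75, limma adjusted p = 0.926). It ranged from 0.01, without heterozygous 6, to 0.32, without null 1. Notch2, a widely expressed receptor, had signals of 19250, 16970 and 17520 in null against 19420, 23250 and 13890 in heterozygous bladders. Its null arrays lay within the heterozygous range, and the difference was -0.04 (SE 0.25, interval -0.62 to 0.53, limma adjusted p = 0.987). A second, dimmer probe set of each gene also overlapped between the groups, with differences of 0.27 for Notch1 and -0.16 for Notch2.

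Notch3, a receptor of vascular mural and smooth muscle cells, had lower signals on every null array. They were 1580, 1297 and 1545 in null and 1887, 1999 and 2411 in heterozygous bladders. The null arrays averaged 10.54 ± 0.15 and the heterozygous arrays 11.04 ± 0.18 (log2 level, SD, n = 3 each), a difference of -0.50 (SE 0.21, interval -0.998 to -0.0077) that did not pass over all genes (limma adjusted p = 0.623). This probe set can by its name match other transcripts. The other Notch3 probe set had signals of 1032, 865.5 and 1118 in null against 1264, 1490 and 1279 in heterozygous bladders, again separate, with a difference of -0.42. Both probe sets therefore lay lower on the same arrays.

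Mural cell markers were read beside Notch3. Of the 11 tested markers (without Notch3) 0 were called, with a median difference of -0.17. Their summed signal was 8964 to 9493 in null against 10220 to 12695 in heterozygous bladders, so the sums did not overlap. A large part of these sums came from Rgs5, the brightest marker. Its signals were 3849 to 4327 in null and 5465 to 7676 in heterozygous bladders. Of the 11 markers 4 lay above 0. Groups were separate for 2 in the lower direction (18.2% against 7.36% of tested genes) and for 1 in the higher (9.09% against 6.07%). The sums therefore do not describe the whole list. Rgs5 and Kcnj8, a G protein regulator and a potassium channel subunit of pericytes, had differences of -0.66 and -0.86, and the adhesion molecule gene Mcam had 0.53 (limma adjusted p = 0.48, 0.521 and 0.621). The 12 smooth muscle genes summed to 245140 to 276080 in null against 194020 to 244260 in heterozygous bladders, with a median difference of 0.24 and 0 called. The part of mural cells in the Notch3 values was not tested, and in whole bladders fewer cells of a type and less RNA per cell cannot be told apart.

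Of the ligands, Jag1 overlapped and Dll1 did not. Jag1, the Jagged ligand of epithelium and mesenchyme, had signals of 4456, 5792 and 5165 in null and 6139, 5757 and 5872 in heterozygous bladders. Only null 2 reached the heterozygous range, and the difference was -0.21 (SE 0.21, interval -0.69 to 0.26, limma adjusted p = 0.873). Its 2 dimmer probe sets had differences of -0.53 and 0.04, with overlapping groups.

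Dll1, a Delta-like ligand carried in the gut by secretory progenitors, had signals of 52.8, 74.3 and 45.1 in null against 17.4, 37.0 and 35.8 in heterozygous bladders. Every null array lay above every heterozygous one, at percentiles of 48.3, 51.7 and 41.4 of all probe sets in null against 24.2, 34.5 and 37.9 in heterozygous bladders. The null arrays averaged 6.18 ± 0.29 and the heterozygous arrays 5.49 ± 0.38 (log2 level, SD, n = 3 each), and their difference, 0.68 (SE 0.27, interval 0.05 to 1.31), missed the threshold over all genes (limma adjusted p = 0.588). With an offset of 64 it was 0.37, as the offset outweighs signals of this size. Dll1 has 1 probe set on the array.

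Dll4, the Delta-like ligand of arterial and sprouting endothelium, had signals of 27.4, 80.9 and 2.76 in null and 24.6, 2.53 and 56.7 in heterozygous bladders. Its arrays were spread widely within both groups, and the difference of 0.18 had an interval of -1.41 to 1.76 (limma without a filter, adjusted p = 0.983). The SDs of this probe set, 1.18 in null and 0.99 in heterozygous bladders, exceeded the difference. The other Dll4 probe set read 17.5, 8.44 and 34.0 in null against 8.71, 2.83 and 2.69 in heterozygous bladders, a difference of 0.75, and null 2 lay just below heterozygous 4. For this dimmer probe set the SDs were smaller than the difference, at 0.52 in null and 0.23 in heterozygous bladders. Of 15 endothelial markers 0 were called and the median difference was -0.28, with summed signals of 6396 to 7345 in null against 7453 to 8898 in heterozygous bladders. Cldn5, Egfl7 and Pecam1, of endothelial junctions and matrix, had differences of -0.98, -0.75 and -0.83 (limma adjusted p = 0.495, 0.51 and 0.59). The Egfl7 probe set, 1 of 4, can by its name match other transcripts. Egfl7 had -0.54 with probe sets averaged, and ranged from -0.88 to -0.25 over the 16 alternatives. Other markers of the list went the other way, with 5 of the 15 above 0. Groups were separate for 2 in the lower direction (13.3% against 7.36% of tested genes). They were separate for 1, Cdh5 (0.41), in the higher (6.67% against 6.07%).

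Hes1, the repressor switched on by Notch, overlapped between genotypes. Its signals were 46.3, 119.7 and 105.9 in null and 67.2, 99.7 and 45.4 in heterozygous bladders. Null 1 and heterozygous 6 were alike in being low, and the difference was 0.27 (SE 0.37, interval -0.58 to 1.12, limma adjusted p = 0.922). It was 0.04 without heterozygous 6 and 0.62 without null 1, the lowest and highest values with 1 array left out.

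**Figure D2:**
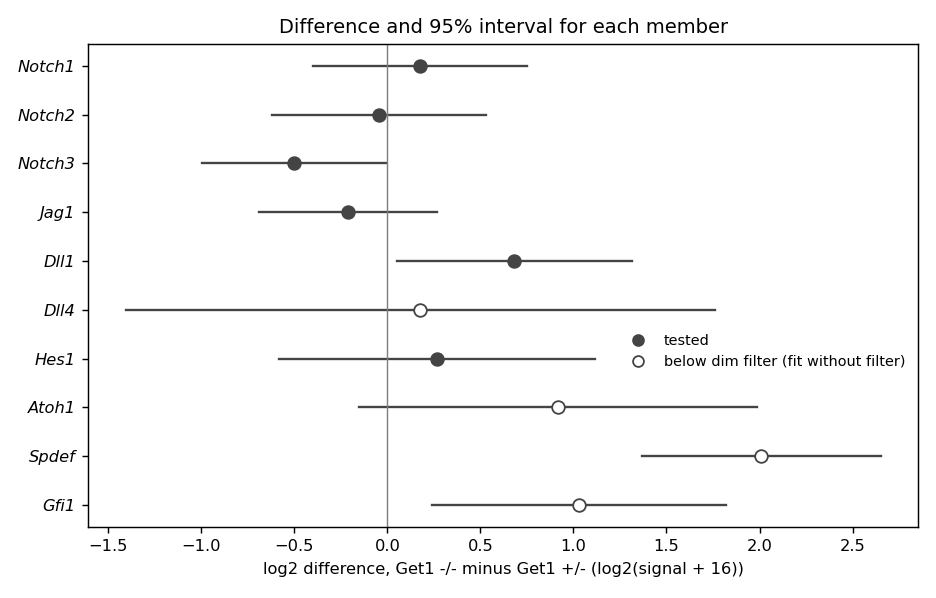
Difference in log2(signal + 16), Get1 -/- minus Get1 +/-, with its 95% interval for each member. Filled points are from the fit over 12735 tested genes, open points (members below the dim filter) from the fit over all 18193 genes. The interval of Spdef, 1.37 to 2.65, lies furthest from 0.

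Of the secretory fate regulators, Spdef stood apart and Atoh1 did not. Spdef, an ets-family factor of goblet cells, had signals of 50.9, 91.8 and 48.4 in null against 2.49, 4.24 and 3.03 in heterozygous bladders. On null arrays it lay near the middle of all probe sets (percentiles 47.6, 55.3 and 42.8) and on heterozygous arrays among the dimmest (percentiles 8.29, 10.6 and 8.92). The null arrays averaged 6.28 ± 0.41 and the heterozygous arrays 4.27 ± 0.07 (log2 level, SD, n = 3 each), and the heterozygous SD is held small by the lowest possible level of 4. In the fit without a filter Spdef rose by 2.01 (SE 0.28, interval 1.37 to 2.65, limma adjusted p = 0.0349). As the heterozygous arrays lie near the lowest level, the size is set by the offset, at 3.89 with an offset of 1 and 0.91 with 64, and with 64 it was not called (adjusted p = 0.169). It also missed the threshold in each of the 6 fits without a filter that left out 1 array, with differences of 1.77 to 2.14 and adjusted p from 0.0932 to 0.167.

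Gfi1, a zinc finger repressor, had signals of 46.5, 82.6 and 60.8 in null and 30.8, 31.8 and 8.76 in heterozygous bladders. All null arrays lay above all heterozygous arrays. The null arrays averaged 6.28 ± 0.33 and the heterozygous arrays 5.25 ± 0.54 (log2 level, SD, n = 3 each), and the difference of 1.03 (SE 0.34, interval 0.24 to 1.82) was not called without the filter (limma adjusted p = 0.492). Blood cell markers, read because Gfi1 is a gene of blood cells, had 0 of 7 tested genes called and a median difference of -0.13, with 3 of the 7 above 0. The summed signal of the 13 listed genes with a probe set was 4901 to 7696 in null against 8334 to 15334 in heterozygous bladders. Gata2 and Csf1r, the brightest of them, had differences of -0.88 and -0.68. Cpa3 had -1.04, the direction of the sum, with overlapping groups. Ptprc, Cd68, Mpo and Kit had -0.13, 0.12, 0.14 and 0.08, so the sum does not describe the whole list. The part of blood cells in the Gfi1 values was not tested.

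Atoh1, the basic helix-loop-helix factor that starts the secretory lineage, had signals of 63.7, 50.4 and 35.2 in null and 50.1, 2.48 and 16.9 in heterozygous bladders. Heterozygous 4 lay within the null range, and the difference was 0.92 (SE 0.46, interval -0.15 to 1.99, limma without a filter, adjusted p = 0.723). With 1 array left out it ranged from 0.47, without heterozygous 5, to 1.39, without heterozygous 4. Markers of Merkel and hair cells, the other cells known for Atoh1, had 0 of 7 tested genes called and a median difference of -0.48. Of these genes, Krt8 and Krt18 were also in the urothelial list, Krt20 in the enterocyte list and Isl1 in the enteroendocrine list. Pou4f3 lay below the filter, at mean levels of 4.21 in null and 4.27 in heterozygous bladders. Sox2 and Piezo2, in none of the other lists, had -0.66 and -0.50, with every null array lower (limma adjusted p = 0.556 and 0.71). Myo7a had 0.17, with overlapping groups. Groups were separate for 3 of the 7 in the lower direction (42.9% against 7.36% of tested genes) and for 0 in the higher (against 6.07%). Because of the shared genes the median does not single out Merkel or hair cells.

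**Figure D3:**
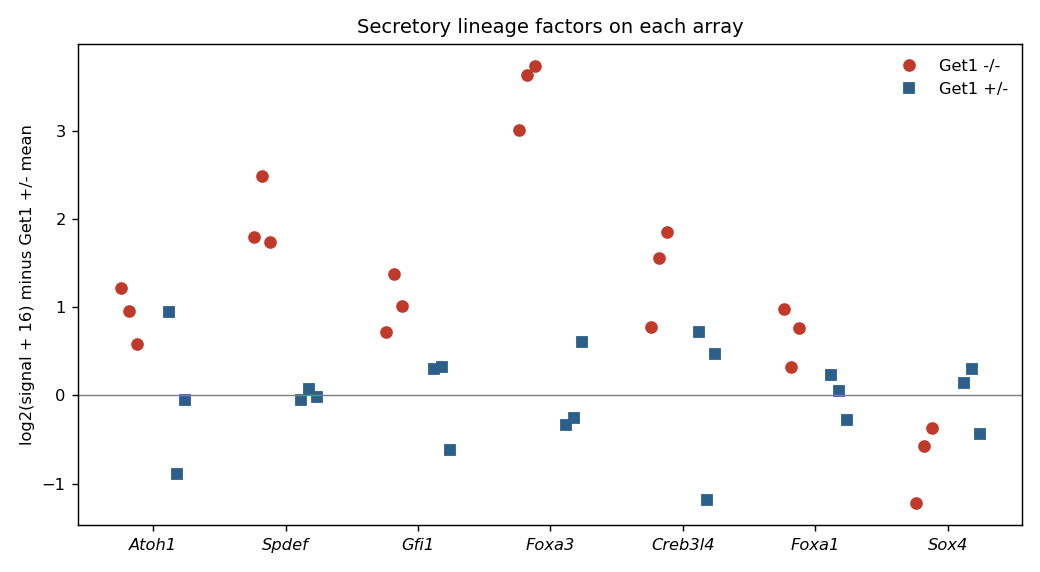
Level on each array, as log2(signal + 16) minus the Get1 +/- mean, of 3 members (Atoh1, Spdef, Gfi1) and of the other secretory lineage factors named by rule (Foxa3, Creb3l4, Foxa1, Sox4), for Get1 -/- (red circles) and Get1 +/- (blue squares). Foxa3 is higher in null by 3.46 and passed the test, while Atoh1 and Sox4 have overlapping groups.

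The other factors of secretory lineages were read from a list of 21, of which 19 had a probe set and 9 were tested. Of the 9 tested 1 rose and 0 fell, against 0.448% called higher and 0.0628% called lower over all tested genes. Their median difference was 0.48. The gene that rose was Foxa3, a forkhead factor of gut endoderm and goblet cells, with signals of 175.1, 278.2 and 299.8 in null and 2.72, 3.82 and 19.96 in heterozygous bladders. The null arrays averaged 8.03 ± 0.39 and the heterozygous arrays 4.57 ± 0.52 (log2 level, SD, n = 3 each), a difference of 3.46 (SE 0.33, limma adjusted p = 0.0027). Foxa3 passed the filter through its null arrays, and its heterozygous arrays lie near the lowest level, so that the size depends on the offset. Among 15 alternative fits in which it passed the filter it was called in each, with a difference between 2.10 (offset of 64) and 5.09 (offset of 1). Creb3l4, a transcription factor of the endoplasmic reticulum, and Foxa1, a forkhead factor of both urothelium and gut, had separate groups and differences of 1.40 and 0.69, and Sox4 had -0.72 (limma adjusted p = 0.553, 0.553 and 0.625). Creb3l4 too had a heterozygous mean level below the filter, at 5.45. The endocrine determinants Neurog3 and Neurod1 and the tuft cell factor Pou2f3 lay below the filter, with overlapping groups and differences of -0.49, -6.0e-04 and -0.15.

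Goblet cell products rose on the arrays with the higher Spdef and Foxa3 signals. Of 15 such genes 11 were tested and 8 rose, against 0.448% of all tested genes called higher. The median difference of the 11 was 4.10, and the summed signal of the 15 was 27388 to 41693 in null against 1908 to 2536 in heterozygous bladders. Of the 8 genes that rose, 6 had a heterozygous mean level below the filter (Agr2 and Clca1 did not), so they were tested because of their null arrays and their sizes depend on the offset. The trefoil factor gene Tff3 rose by 7.45, the gene of the small secreted protein Spink4 by 6.15 and that of the mucus protein Fcgbp by 6.08 (limma adjusted p = 9.3e-05, 7.3e-04 and 0.0050). Agr2, a disulfide isomerase needed for mucin folding, had signals of 6228, 8453 and 8473 in null and 375.3, 286.2 and 404.4 in heterozygous bladders (difference 4.38, SE 0.24, limma adjusted p = 2.2e-04). The gel-forming mucin Muc2 rose by 4.37, the goblet cell protein Clca1 by 3.37, the lectin Zg16 by 4.10 and the membrane mucin Muc13 by 3.23 (limma adjusted p = 0.0085, 3.1e-04, 4.1e-04 and 0.0020). Leaving out probe sets that may match other transcripts gave Zg16 a difference of 1.72, at a level below the filter, and Muc13 one of 1.80 (adjusted p = 0.0144). Averaging the probe sets gave Zg16 2.51. Zg16 was no longer called with an offset of 1 (difference 2.82, adjusted p = 0.631, a different probe set being the brightest) and Muc2 missed the threshold there too (adjusted p = 0.0693), as did Fcgbp (adjusted p = 0.0591). Muc2 also missed it without heterozygous 5 (difference 4.22, adjusted p = 0.0583). Among null arrays the goblet sum was lowest on null 1 and highest on null 3, as was Foxa3, while Spdef was highest on null 2. The part of goblet-type cells in the Spdef and Foxa3 values was not tested.

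Markers of the other intestinal cell types were read on the same arrays. Of 12 tested enterocyte genes 5 rose, the peptide hormone gene Guca2a by 5.43, the fatty acid binding protein gene Fabp1 by 5.41, the intestinal homeobox gene Cdx2 by 4.06, the brush border gene Vil1 by 3.72 and the cadherin gene Cdh17 by 3.02 (limma adjusted p = 3.4e-04, 0.0024, 0.0033, 0.0020 and 0.0019). Over all tested genes 0.448% were called higher. Guca2a, Fabp1, Cdx2 and Cdh17 had heterozygous mean levels below the filter (5.06, 4.70, 4.67 and 5.26). They were tested because of their null arrays, and their sizes depend on the offset. Averaging the probe sets gave Cdx2 a difference of 1.83, at a level below the filter. The enterocyte list summed to 3909 to 9904 in null against 1207 to 1780 in heterozygous bladders. Among 5 Paneth, 11 enteroendocrine and 3 tuft cell genes tested 0 were called, with median differences of 0.31, -0.16 and -1.12. Members of a list differed in direction. Above 0 lay 3 of the 5 tested Paneth, 5 of the 11 enteroendocrine and 0 of the 3 tuft cell genes. In the Paneth list the matrix protease gene Mmp7 had 2.80, with separate groups, and the lectin gene Reg4 had 1.98 (limma adjusted p = 0.0561 and 0.38). Lyz1 and Itln1 of that list had -0.53 and -0.04, with overlapping groups. Mmp7 passed the threshold in 7 of 15 alternatives in which it was tested. The hormone genes Pyy and Sct had 1.26 and 1.05, with every null array higher (limma adjusted p = 0.28 and 0.376). Chgb and Scg5, also of the enteroendocrine list, had -0.72 and -0.64, with overlapping groups. Mmp7, Reg4, Pyy and Sct had heterozygous mean levels below the filter too (5.45, 5.38, 5.29 and 5.30), so they were tested because of their null arrays. The tuft cell channel gene Trpm5 and the kinase gene Dclk1 had -1.46 and -1.12, with every null array lower (limma adjusted p = 0.17 and 0.576). With probe sets averaged they had -1.04 and -0.51, Dclk1 having 9 probe sets. Avil, of the same list but below the filter, had 1.01 with overlapping groups. The summed signals of the enteroendocrine list overlapped, at 19928 to 25700 in null against 19308 to 23806 in heterozygous bladders. Some of these endocrine genes are also expressed in nerves, and the neuron and glia list had 0 of 10 called and a median of -0.74. Of the 17 urothelial genes 0 rose and 2 fell, against 0.0628% of all tested genes called lower. The sorting nexin gene Snx31 fell by 5.58 and the uroplakin gene Upk2 by 3.03 (limma adjusted p = 3.4e-04 and 0.0022). The list had a median of -0.01, with 8 of the 17 above 0. Groups were separate for 5 in the lower direction (29.4% against 7.36% of tested genes) and for 3 in the higher (17.6% against 6.07%). Upk1a had -2.36, Krt19 1.15 and Shh 1.00 (limma adjusted p = 0.199, 0.28 and 0.388). The arterial, stromal and erythroid lists had 0 genes called and medians of -0.26, -0.22 and -0.04.

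The wider Notch pathway was read from 40 genes in 3 lists, of which 37 had a probe set and 32 were tested. In limma 0 of the 32 passed, against 0.51% of all tested genes, and 1, Lfng, had an unadjusted p under 0.05. Their median difference was -0.17, against -0.03 over all tested genes, and 12 of the 32 lay above 0. Groups were separate for 4 in the lower direction, 12.5% against 7.36% of tested genes, and for 0 in the higher direction, against 6.07%.

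Those 4 are Lfng, Poglut1, Hes6 and Rbpj, of which Poglut1 and Rbpj were named after their values were seen. Lfng, a sugar transferase that tunes which ligands Notch answers to, had signals of 238.7, 237.2 and 349.1 in null and 381.1, 463.2 and 392.2 in heterozygous bladders (difference -0.57, SE 0.23, limma adjusted p = 0.602). Rbpj, the DNA-binding partner of Notch, had signals of 3981, 3568 and 3248 in null and 4191, 4301 and 5008 in heterozygous bladders (difference -0.32, SE 0.21, limma adjusted p = 0.778). The differences of Poglut1, which adds glucose to Notch, and of Hes6, a Hes family member that opposes Hes1, were -0.40 and -0.39 (limma adjusted p = 0.734 and 0.742). Averaging the probe sets of each gene or leaving out those that may match other transcripts changed 2 of the 4, with Rbpj at -0.03 when probe sets were averaged and Hes6 at 0.05 when such probe sets were left out.

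Nrarp, a Notch target that dampens Notch signalling, had the highest difference of the pathway genes, with signals of 2961, 1672 and 1662 in null and 1982, 801.3 and 812.2 in heterozygous bladders. Heterozygous 4 lay above both of the lower null arrays, and the difference was 0.88 (SE 0.41, limma adjusted p = 0.656). Other targets did not share one direction, as Hey1 had 0.18, Hey2 -0.23 and Heyl -0.36. Among ligands and receptors outside the members, the non-canonical ligand gene Dlk1 had -0.62, Dner -0.19 and Dlk2 0.41. Mfng, a relative of Lfng, had -0.48, the ubiquitin ligase gene Itch 0.52 and the splicing and co-activator gene Snw1 -0.41 (limma adjusted p = 0.722, 0.726 and 0.76).

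**Figure D4:**
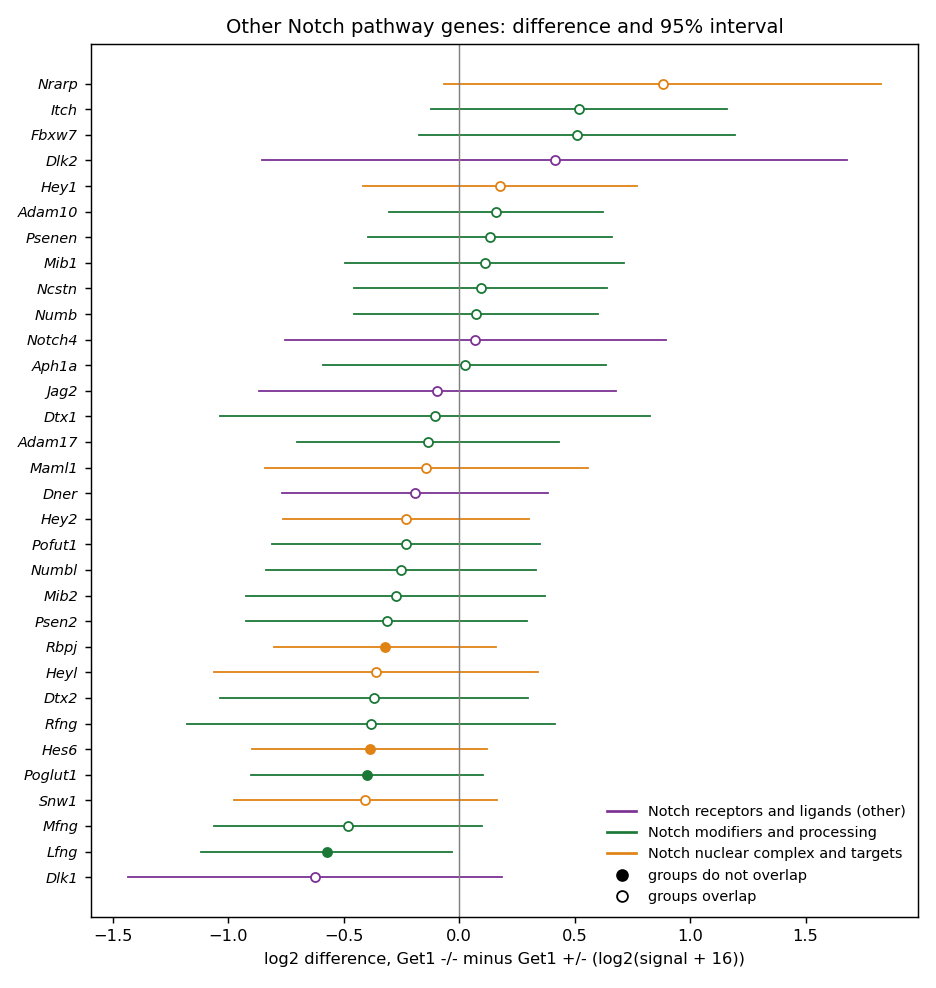
Difference in log2(signal + 16), Get1 -/- minus Get1 +/-, with its 95% interval for the 32 tested Notch pathway genes outside the members, coloured by list. Filled points mark the 4 genes whose groups do not overlap, all of them lower in null, and 0 of the 32 genes passed the test over all genes.

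The genes with the profile nearest to that of a member were found as those with the smallest root mean square difference over the 6 arrays, after each profile was centred on its mean. For Spdef these were AA467197, Cftr, a chloride channel of secretory epithelia, and Ckmt1, a mitochondrial creatine kinase, at root mean square differences of 0.28, 0.32 and 0.32. Their differences were 2.43, 1.74 and 1.97, a direction that choosing them by likeness to Spdef fixes, so no test is given. The other Cftr probe set had a difference of -0.42. Nearest to Atoh1 were Lrp2bp, Cebpg and Ppp1r3c, nearest to Gfi1 were Rab26os, Gadd45b and Anks4b, and nearest to Hes1 were Pomt2, Cldn1 and Wrap53.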

How the data were processed

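The authors deposited a linear intensity per probe set. Per the submitters' processing notes they used PLIER 2.0 and Affymetrix Expression Console 1.1, with no role or order stated. Background correction, between-array normalization and detection calls are not stated, so a dim signal has no stated background. The labels describe a kit that makes sense-strand DNA, whereas probe sets of this 3' expression type are usually read with antisense RNA. Which labelling was used could not be settled, nor what it means for the signals.

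Of 45101 probe sets, 64 controls were left out, and 34945 with exactly 1 symbol in the platform annotation gave 18193 genes. Symbols were checked against GRCm38.p6 gene identifiers, which altered 0. Levels are log2(intensity + 16), and the 30% of genes with the lowest mean were left out (mean level under 5.80). Sample titles gave the groups and replicate numbers. The comparison used limma 3.58.1 under R 4.3.3 (linear fit and empirical Bayes, two-sided, Benjamini-Hochberg over all genes tested, threshold 0.05), which was tested on simulated data. The number of arrays limits the precision, and p-values measure the spread between these samples, which may be technical. Figures were drawn with matplotlib 3.10.9.

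The members and the 19 lists were chosen with earlier results of these data known, and members were taken out of the lists. The rule for other named genes took those called in a list, up to 3 others per list with the smallest p, and the 3 nearest profiles of Atoh1, Spdef, Gfi1 and Hes1, and the text gives those of the lists nearest to the members. Neurog3, Neurod1, Pou2f3, Hey1, Hey2 and Heyl were named after their values were seen, as were Poglut1 and Rbpj. Ptprc, Cd68, Mpo, Kit, Cdh5, Avil, Pou4f3, Myo7a, Lyz1, Itln1, Chgb and Scg5 also fall outside this rule and were named with their values known. Alternatives were offsets of 1 and 64, no filter and a stricter one, averaged probe sets, quantile normalization, median centring, array weights, a trended robust fit, leaving out less specific probe sets, and leaving out each array.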

Additional observations from a re-analysis of the deposited data

How the results depend on the processing

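Over the 16 alternatives 0 members were called in either direction, except that 1 was called higher without a filter (Spdef). Spdef, Atoh1 and Dll4 were each tested in only 1 of the 16 alternatives, and Gfi1 in 3, as the filter left them out of the others. For these members most alternatives are therefore no test. All 10 members kept the sign of their difference in every alternative except Notch2 and Dll4, whose sign turned with 1 array left out (range -0.25 to 0.12 for Notch2, positive without heterozygous 5, and -0.41 to 0.77 for Dll4, negative without null 2 or heterozygous 5). With 1 array left out the counts of all genes were 38 to 54 higher and 5 to 9 lower in null, against 57 and 8. An offset of 1 gave 35 higher and 5 lower genes, a filter that removed the dimmest 50% of genes gave 38 and 5, and array weights gave 77 and 12. The lower count was also 5 without null 2 or without heterozygous 5.

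The Spdef call without a filter was examined in further fits chosen after seeing the data. It held with quantile normalization, median centring, array weights and an offset of 1, and was lost at an offset of 64 (0.91, adjusted p = 0.169) and in a trended robust fit (2.01, adjusted p = 0.0921). With 1 array left out the difference ranged from 1.77 to 2.14, past the threshold in 0 of 6 fits. Those fits have fewer arrays. Among other named genes, leaving out probe sets that may match other transcripts turned Hes6 (0.049) and Cftr (-0.42), and Dlk2 ranged from -0.21, without heterozygous 5, to 0.79. The cause was not tested. Null 1 alone has 1 as the first number of its title, so setting that number apart is the fit without null 1, in which 54 genes were higher and 7 lower. Signals as low as those of Dll4, Atoh1, Spdef and Gfi1 limit what can be measured. No paired analysis was possible because the groups share no replicate numbers.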
